A study of Rattus norvegicus with 6 samples.

Results

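Of the 34156 genes in the deposited count table, 10 are described here: the chemokines Cxcl1, Cxcl2, Cxcl9, Cxcl10, Cxcl11, Cxcl12, Cxcl13, Cxcl16 and Cx3cl1, and the atypical receptor Ackr3. They were taken by gene name, and each name matched 1 row. The cells were rat fibroblast-like synoviocytes (RA-FLS, cells of the joint lining) with the label rheumatoid arthritis and genotype WT, bought from a supplier. The TNF-α group (3 libraries) received TNF-α at 10 ng/ml, and the TNF-α+EMO group (3 libraries) received the same TNF-α and emodin (EMO, an anthraquinone of rhubarb) at 80 μmol/L. Both groups therefore carried TNF-α, the series holds no group without it, and the induction of these genes by TNF-α was not measured. The labels give day 5 for all samples, whereas the study's methods give 24 h of incubation. The comparison asks which transcripts differ when EMO is present during TNF-α stimulation.

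Chemokines are small secreted proteins that steer leukocytes along a gradient, and their families are named for the spacing of the first cysteines. In the inflamed synovium, fibroblasts make chemokines that draw neutrophils, T cells and B cells into the joint, and TNF-α, acting through NF-κB, is a known inducer of many of them. Cxcl16 and Cx3cl1 are made as membrane proteins that ADAM proteases can release, and Ackr3 is a receptor that takes up Cxcl12 and Cxcl11 rather than signalling through G proteins.

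All 10 genes were lower with EMO, and in none did the groups of libraries overlap. Cx3cl1 and Cxcl12, each with at least 2504 counts per library with TNF-α alone, had 0 counts in every TNF-α+EMO library. Cxcl16 stood apart at the other end and kept 54.2% of its mean normalized count. The other chemokines and Ackr3 kept 11.7% or less.

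The upstream sequences of these genes are shown because binding sites for NF-κB and for interferon-driven factors are the usual entry points of inflammatory signals to chemokine genes. All 10 genes matched a RefSeq promoter of the rat build GRCr8, which is not the build of the counts, and the 250 bases before each start were searched on both strands. The κB consensus, a site of 10 bases bound by NF-κB dimers, was found before 4 of the 10 genes (Cxcl1, Cxcl2, Cxcl10 and Cxcl11), and before 6.41% of 27457 rat promoters. The interferon response core, GAAA and GAAA with any 2 bases between them, was found before Cxcl10 alone of the 10, and before 3.29% of promoters. In the sequences below, written 5′ to 3′ and ending at the base before the start, capitals mark these 2 motifs, and matches that overlap on both strands run together.
Cxcl1 (chr14:17479322-17479441, minus strand): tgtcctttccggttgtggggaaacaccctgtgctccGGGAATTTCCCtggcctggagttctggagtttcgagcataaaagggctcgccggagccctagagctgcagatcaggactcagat
Cxcl2 (chr14:17467256-17467375, minus strand): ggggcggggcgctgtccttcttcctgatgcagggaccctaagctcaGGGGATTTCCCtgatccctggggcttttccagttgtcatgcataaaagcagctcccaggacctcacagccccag
Cxcl11 (chr14:15973608-15973727, plus strand): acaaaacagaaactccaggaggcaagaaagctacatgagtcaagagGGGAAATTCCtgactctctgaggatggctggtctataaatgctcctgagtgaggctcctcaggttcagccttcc
Cxcl10 (chr14:15988816-15989065, plus strand): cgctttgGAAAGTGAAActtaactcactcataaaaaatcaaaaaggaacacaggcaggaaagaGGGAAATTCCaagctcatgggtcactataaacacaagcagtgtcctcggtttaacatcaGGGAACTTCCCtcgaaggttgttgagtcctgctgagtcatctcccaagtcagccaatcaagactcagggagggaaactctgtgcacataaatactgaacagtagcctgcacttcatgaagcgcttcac

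For comparison, Cx3cl1 and Cxcl12, which were abundant with TNF-α and at 0 counts with EMO, are shown with Cxcl16, which changed least. Neither motif was found in the 250 bases before any of them, nor before Cxcl9, which was also at 0 counts with EMO and is not shown.
Cx3cl1 (chr19:10242821-10242940, minus strand): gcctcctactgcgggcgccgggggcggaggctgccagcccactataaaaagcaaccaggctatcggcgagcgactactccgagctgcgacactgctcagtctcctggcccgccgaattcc
Cxcl12 (chr4:152060661-152060780, plus strand): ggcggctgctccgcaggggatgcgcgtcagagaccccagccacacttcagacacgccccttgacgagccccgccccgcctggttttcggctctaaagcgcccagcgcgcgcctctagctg
Cxcl16 (chr10:55669951-55670070, minus strand): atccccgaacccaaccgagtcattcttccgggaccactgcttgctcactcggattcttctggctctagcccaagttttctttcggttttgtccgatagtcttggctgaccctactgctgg

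The matches lay close to the start in 3 of the genes. They covered positions -84 to -74 before the start of Cxcl1, -74 to -64 before Cxcl2 and -74 to -65 before Cxcl11. In Cxcl10 they lay further away, at -187 to -178 and -128 to -118, with the interferon core at -243 to -234. The GAS motif TTCNNNGAA, bound by STAT dimers, was found before Cxcl11 alone (7.52% of promoters), and the AP-1 motif TGANTCA before Cxcl10 and Cxcl11 (6.36%). The letters TATAAA of a TATA box were found before 5 of the 10 genes (Cxcl10, Cxcl11, Cxcl13, Cx3cl1 and Ackr3), against 13.1% of promoters. Their distance from the start varied. The match began at -33 before Cxcl13, -41 before Cxcl11, -54 before Ackr3, -78 before Cx3cl1 and -162 before Cxcl10. A match of letters is not a measured site, and the lack of one in 250 bases of another build is not a measured absence. Whether these motifs bear on the change with EMO was not tested.

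The libraries held 16813322 to 17794455 counts on genes, and 12566 to 13365 genes had at least 10 counts. A gene was tested where at least 3 libraries held at least 10 counts, which left 13614 genes and all 10 described here. Of the 10, 4 had at least 10 counts in every library, and the other 6 passed through the TNF-α libraries, in which they were high, so that a count over the 10 is a description. Counts were scaled to the same effective library size (normalized counts), and log2 fold changes, given with their standard error (SE), are of TNF-α+EMO over TNF-α by edgeR's quasi-likelihood test, with p-values adjusted over all genes tested. At an adjusted p under 0.05 and a log2 fold change under -1, 9 of the 10 were lower, where 27.8% of all genes tested were. None was higher by the same rule, whether by edgeR, DESeq2 or limma voom, and none was higher at an unadjusted p under 0.05, where 40.0% of all genes tested were. With no limit on the fold, all 10 passed an adjusted p of 0.05, as did 80.9% of all genes in either direction, and all 10 were lower, against 41.4%. The normalized counts of all 10 lay lower with EMO without overlap, against 42.5% of all genes. Among the 10 genes the median log2 fold change came to -6.74, or to -6.05 with the genes at 0 counts set to their bounds, beside -0.01 for all genes tested.

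**Figure D1:**
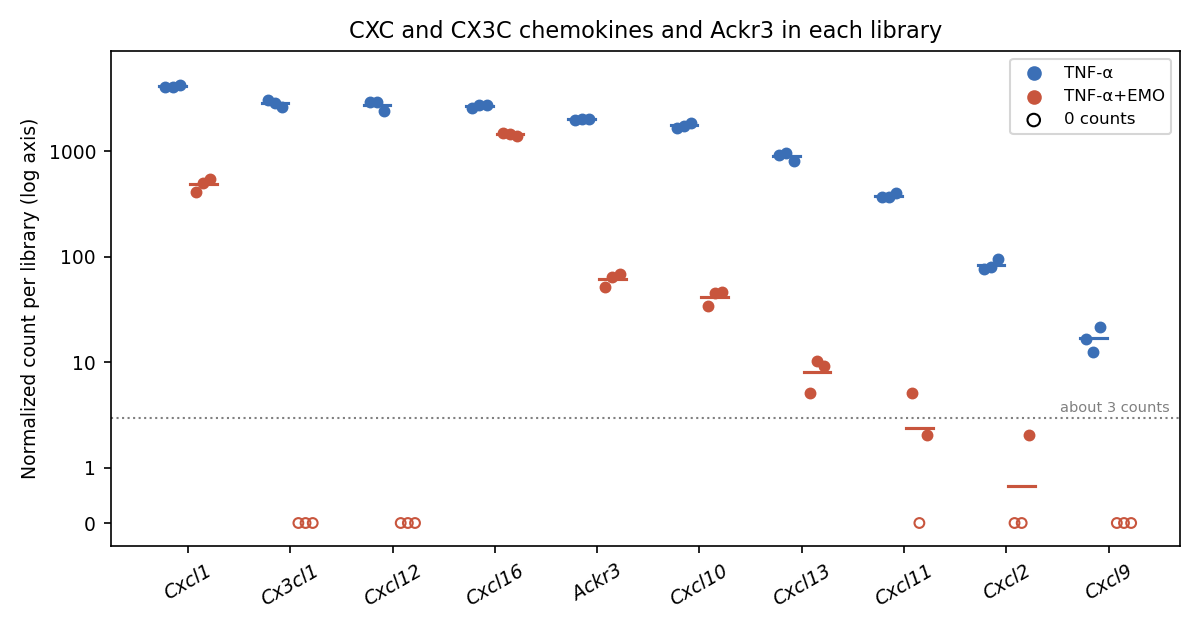
Normalized count of each gene in each of the 6 libraries, on a log axis with 0 placed at the bottom; points are libraries, short lines are group means, and the dotted line is about 3 counts. In every gene the 3 TNF-α points lie above the 3 TNF-α+EMO points, and the gap is narrowest in Cxcl16.

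The neutrophil attractants Cxcl1 and Cxcl2, which act through Cxcr2, lie 10.3 kb apart on chromosome 14. Cxcl1 (18743685 to 18745457 in the deposited coordinates of Rnor_6.0) was counted 4120, 4207 and 4383 times with TNF-α and 398, 489 and 536 times with EMO. It was the most abundant chemokine of the TNF-α group and was still well detected in every TNF-α+EMO library. Its normalized count was 4138 ± 118 with TNF-α and 486 ± 68.9 with EMO (SD, n = 3 each), 8.52-fold lower, with a log2 fold change of -3.09 (SE 0.10, edgeR adjusted p = 2.3e-10).

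Cxcl2 (18731378 to 18733391) was far less abundant, with 79, 83 and 98 counts with TNF-α and 0, 0 and 2 with EMO. Pooled over the libraries, the 260 counts against 2 gave a ratio of 124, with an exact 95% interval of 34.0 to 1029 that covers counting error only (edgeR adjusted p = 7.2e-07). The single TNF-α+EMO library with counts decided its fitted log2 fold change, which was -6.71 with all libraries and -9.41 without TNF-α+EMO replicate 3. Cxcl1, Cxcl2 and the related Cxcl3 are similar in sequence, and how the authors counted reads shared between them is not given in the sources used here, so the split between these genes is uncertain.

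Cxcl9, Cxcl10 and Cxcl11 are interferon-inducible ligands of Cxcr3 that draw activated T cells, and they lie side by side on chromosome 14 from 17195014 to 17234712. Cxcl10 (17210733 to 17212930) had 1715, 1799 and 1907 counts with TNF-α and 33, 44 and 46 with EMO. The values were tight within each group and far apart between them. The fold was 42.0, with a log2 fold change of -5.39 (SE 0.12, edgeR adjusted p = 1.9e-11).

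Cxcl11 (17195014 to 17198291) had 378, 375 and 413 counts with TNF-α and 5, 0 and 2 with EMO, so its remaining counts came from 2 of the 3 TNF-α+EMO libraries. The pooled ratio was 159 (exact 95% interval 76.8 to 396, counting error only), and its log2 fold change was -7.24 (SE 0.37, edgeR adjusted p = 2.1e-08) and -8.38 without TNF-α+EMO replicate 1. Cxcl9 (17228856 to 17234712) had 17, 13 and 22 counts with TNF-α and none in any library with EMO, at least 5.51-fold lower against a floor of 3 counts per library (edgeR adjusted p = 1.0e-04). That bound is low because the gene had few counts with TNF-α. Art3 spans Cxcl10 and Cxcl11 on the opposite strand, and it had 0 counts in 5 libraries and 3 counts in TNF-α replicate 3.

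Cxcl12, a chemokine of stromal cells that acts through Cxcr4 and holds stem cells and lymphocytes in place, lies on chromosome 4 from 149261044 to 149273891. It had 3009, 3016 and 2504 counts with TNF-α and no count in any library with EMO. No count was left of a gene that was abundant in every TNF-α library. Its normalized count was 2777 ± 293 (SD, n = 3) with TNF-α, and it was at least 904-fold lower with EMO (edgeR adjusted p = 1.8e-10).

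Ackr3 (chromosome 9, 97355924 to 97367445), the scavenger of Cxcl12, fell as well, but it was not lost. It had 2010, 2061 and 2099 counts with TNF-α and 50, 63 and 68 with EMO. Its libraries were the most alike of the 10 genes with TNF-α, with a coefficient of variation of 1.82%. The fold was 32.5, with a log2 fold change of -5.02 (SE 0.10, edgeR adjusted p = 1.5e-11).

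Cxcl13, which draws B cells through Cxcr5 and is known from lymphoid follicles of the inflamed synovium, lies on chromosome 14 from 15253125 to 15258207. It had 949, 990 and 825 counts with TNF-α and 5, 10 and 9 with EMO. All 3 TNF-α+EMO libraries were above 3 counts but at 10 or fewer. The fold was 110, with a log2 fold change of -6.76 (SE 0.18, edgeR adjusted p = 6.2e-11).

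The membrane-bound chemokines differed most from each other. Cx3cl1 (fractalkine, the ligand of Cx3cr1; chromosome 19, 10644244 to 10653800) had 3132, 2961 and 2727 counts with TNF-α and none in any library with EMO, at least 935-fold lower (edgeR adjusted p = 6.3e-11). Of the genes tested, 1.29% were at 0 in every TNF-α+EMO library, and these included 3 of the 10 genes: Cx3cl1, Cxcl12 and Cxcl9. With Cxcl2, 4 of the 10 had at most 3 counts in every TNF-α+EMO library, against 3.59% of the genes tested. All 4 passed the filter only through the TNF-α libraries, in which they were high, so that these counts are a description.

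Cxcl16 (the ligand of Cxcr6; chromosome 10, 57060007 to 57064600) had 2610, 2825 and 2821 counts with TNF-α and 1455, 1428 and 1383 with EMO. The groups did not overlap, yet the change was small beside that of Cx3cl1, which had a similar number of counts with TNF-α. The normalized count went from 2688 ± 111 to 1457 ± 46.1 (SD, n = 3 each), 1.84-fold lower, and the log2 fold change of -0.88 (SE 0.06, edgeR adjusted p = 1.5e-07) did not reach the limit of -1. Zmynd15, on the opposite strand, shares 119 bases with Cxcl16 and had 92 to 146 counts per library.

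**Figure D2:**
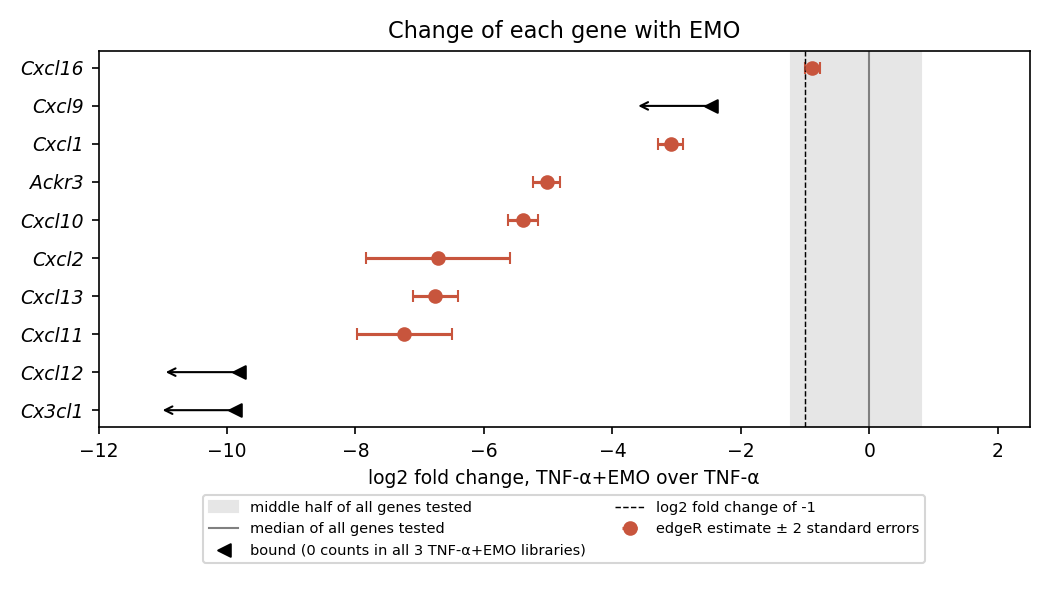
Log2 fold change of TNF-α+EMO over TNF-α for each gene, as edgeR's estimate with 2 standard errors, or as a bound (triangle and arrow) where all 3 TNF-α+EMO libraries had 0 counts; the grey band and line are the middle 50% and the median of all genes tested, and the dashed line is at -1. Cxcl16 lies within the grey band at -0.88, and the other genes lie to its left.

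To compare levels between genes, normalized counts were put on a scale of CPM (counts relative to the library total) and divided by the deposited gene length in kb. With TNF-α, Cxcl1 was highest at 260 ± 7.44 (SD, n = 3), followed by Cxcl16 at 91.8 ± 3.77 and Cxcl10 at 90.6 ± 4.53, whose libraries overlapped. Then came Ackr3 at 60.4, Cx3cl1 at 53.5, Cxcl13 at 46.0, Cxcl12 at 29.8, Cxcl11 at 14.2, Cxcl2 at 4.60 and Cxcl9 at 0.657, each below the libraries of the gene before it. In this group Cxcl1 stood at the 98.1 percentile of all genes tested, and 8 of the 10 genes stood above the median.

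With EMO the order was another. Cxcl16 was now highest at 49.7 ± 1.58, above Cxcl1 at 30.5 ± 4.33, and the other genes were at 2.15 or less. Cxcl10 at 2.15 and Ackr3 at 1.86 overlapped, Cxcl13 lay lower at 0.419, and the libraries of Cxcl11 and Cxcl2 overlapped with each other and with the 0 of Cxcl9, Cxcl12 and Cx3cl1. The authors' FPKM values gave the same order in both groups.

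Summed over the 9 chemokines, the level was 591 ± 7.12 CPM per kb with TNF-α and 83.0 ± 3.29 with EMO (SD, n = 3 each), 7.13-fold lower. Its make-up differed as well. Cxcl1 made up 43.3% to 45.1% of the sum with TNF-α alone and 32.6% to 40.2% once EMO was added, and Cxcl16 went from 15.0% to 15.8% up to 56.3% to 64.7%. Together these 2 genes made up 96.4% to 97.2% of what was left with EMO, against 58.6% to 60.8% with TNF-α. All 9 chemokines were above 3 counts in every TNF-α library, and 4 or 5 were in the TNF-α+EMO libraries.

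**Figure D3:**
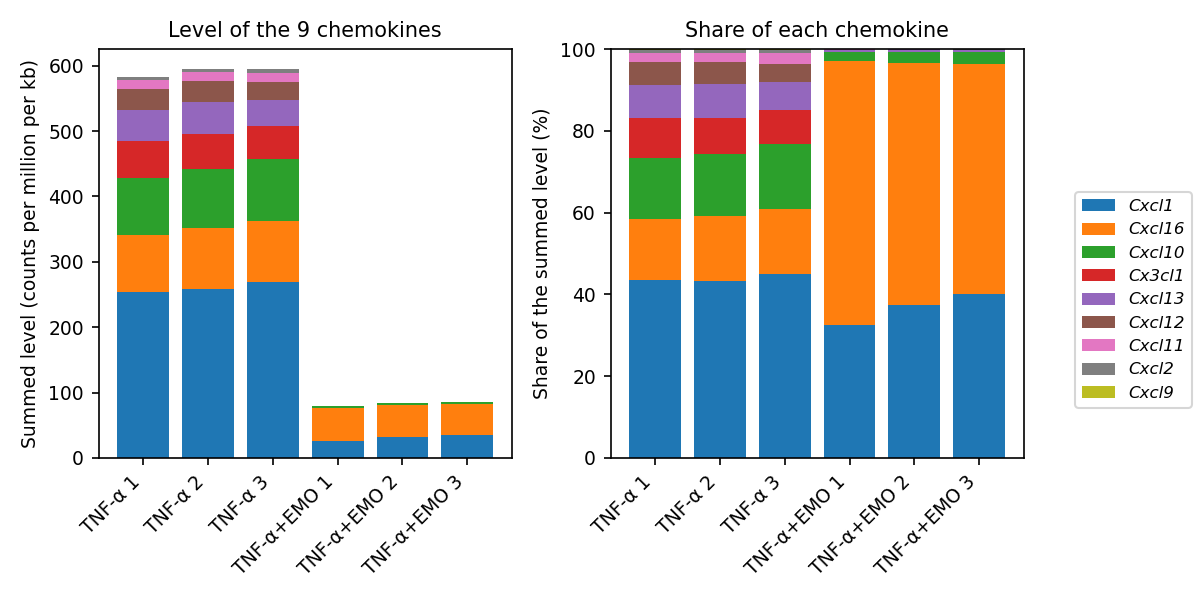
Level of the 9 chemokines in each library, stacked, in CPM per kb (left) and as a share of their sum in percent (right). The stacks reach 583 to 595 with TNF-α and 79.2 to 85.5 with EMO, where Cxcl1 and Cxcl16 fill nearly the whole stack.

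Of the 10 genes, 6 lie on chromosome 14 within 3492 kb. The nearest tested genes on either side of the 10 were looked up by position after the values of the 10 had been seen. These were 14 genes, of which 2 were lower and 4 higher by the same rule as above. Of all genes tested, 27.8% were lower and 19.5% higher. The log2 fold changes of the 14 genes had a median of 0.44, beside -0.01 for all genes tested. The Cxcl11, Cxcl10 and Cxcl9 cluster sits between Nup54, a nuclear pore gene, and Sdad1, a gene of ribosome assembly. Nup54 lay 53.2 kb before Cxcl11 and was higher with EMO by a log2 fold change of 1.11 (SE 0.08, edgeR adjusted p = 2.2e-07), and Sdad1 lay 12.7 kb after Cxcl9 and was higher by 1.81 (SE 0.07, edgeR adjusted p = 1.4e-09). Beside Cxcl2 and Cxcl1, Mthfd2l had a log2 fold change of 0.25 (SE 0.27, edgeR adjusted p = 0.41). On their other side lay Cxcl3, itself a neutrophil attractant, with 249, 231 and 241 counts with TNF-α and 1, 2 and 12 with EMO, so that most of what was left came from replicate 3. The second lower gene was Cnot6l, a deadenylase subunit whose gene lies 107 kb beyond the 3′ end of Cxcl13, with a log2 fold change of -1.12 (SE 0.15, edgeR adjusted p = 6.1e-05). Med11, which lies 604 bases beyond the 3′ end of Cxcl16, had a log2 fold change of 0.27, and Ciapin1, 34.2 kb beyond the 3′ end of Cx3cl1, one of -0.08.

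**Figure D4:**
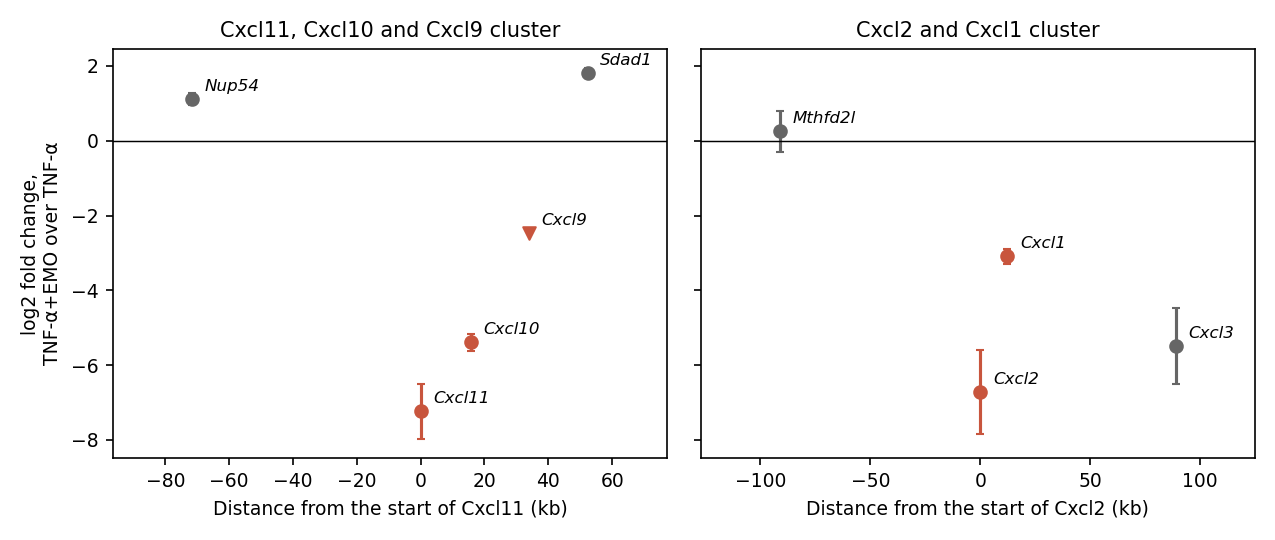
Log2 fold change of the chemokines (red) and of the nearest tested genes (grey) against their distance in kb from the start of Cxcl11 (left) or Cxcl2 (right), with 2 standard errors; the triangle of Cxcl9 is a bound. The outer genes Nup54, Sdad1 and Mthfd2l lie at 0.25 or above, while Cxcl11, Cxcl10, Cxcl9, Cxcl2, Cxcl1 and Cxcl3 lie below -2.

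By the rule for likeness, the 3 genes closest to Cxcl1 in level over the 6 libraries were Mgst2, Ccdc80 and Mmp14, out of 10205 candidates with at least 100 counts on average. Their distances on the scale of log2(CPM per kb + 0.1) were 0.404, 0.558 and 0.704. Mgst2, the closest, had 244 to 259 CPM per kb with TNF-α and 27.0 to 27.9 with EMO.

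The receptors for these chemokines were mostly not detected. Cxcr4 and Cx3cr1 had 0 counts in every library, which allows up to 3 counts per library, and Cxcr2, Cxcr5 and Cxcr6 had at most 1 count in any library, as had Cxcr1. Xcr1 and Ackr2 had 0 counts in every library, and Ackr1 was not analysed here. Cxcr3, the receptor of Cxcl9, Cxcl10 and Cxcl11, had 29, 20 and 22 counts with TNF-α and none in any library with EMO, at least 7.53-fold lower (edgeR adjusted p = 3.1e-05). Ackr4, a scavenger of CC chemokines and Cxcl13, went from 292 ± 29.5 to 61.5 ± 5.66 normalized counts (SD, n = 3 each), or -2.25 in log2 fold change (SE 0.15, edgeR adjusted p = 1.1e-07). These were the 2 receptors tested, and both were lower, where 27.8% of all genes tested were. Cxcr3 passed the filter only through the TNF-α libraries, in which it was high, whereas Ackr4 had at least 10 counts in every library.

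Among the other ligands of these families, the 2 that could be tested were lower, where 27.8% of all genes tested were. Both passed the filter through the TNF-α libraries, in which they were high, so that this count is a description. The log2 fold change was -5.49 for Cxcl3 (SE 0.50, edgeR adjusted p = 9.8e-06) and -2.61 for Cxcl17 (SE 0.50, edgeR adjusted p = 6.0e-04). Cxcl6 had 4, 11 and 7 counts with TNF-α and none in any library with EMO and was not tested. Cxcl14, Pf4, Ppbp and Xcl1 had 0 counts in every library, and Cxcl5 was not analysed here.

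The other genes around the chemokines were 75 in 8 lists by role, of which 58 were tested. By the limits of p and fold given above, 26 of them were lower, 2 were higher and 30 were neither, and their median log2 fold change was -0.88. Over all genes tested, 27.8% were lower and 19.5% higher. The lists differed in how many of their genes were lower, and the counts of each list below are to be read beside these shares.

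Of the 4 tested proteases that release or trim these chemokines, 3 were lower. Adam17 had 5413 ± 146 normalized counts with TNF-α and 1478 ± 122 with EMO (SD, n = 3 each), which is -1.87 in log2 terms (SE 0.07, edgeR adjusted p = 1.0e-09), and Adam10 had a log2 fold change of -1.15 (SE 0.09, edgeR adjusted p = 4.0e-07). Both are sheddases of Cx3cl1 and Cxcl16. Mmp9 had the largest change of the list at -7.41 (SE 0.11), while Mmp2, which can cleave Cxcl12, had a log2 fold change of -0.05 (SE 0.06, edgeR adjusted p = 0.43). Dpp4, which trims Cxcl10 and Cxcl12, had 6 counts or fewer in every library and was not tested.

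Of 14 interferon receptors, JAK-STAT factors and IRF factors, 6 were lower, 0 higher and 8 neither. Irf7, an inducer of interferon genes, had the largest change at -2.93 (SE 0.10), and Irf1 had one of -1.38 (SE 0.07, edgeR adjusted p = 5.9e-09). Ifnar2 had the smallest, at 0.01 (SE 0.10). With no limit on the fold, 9 of the 14 were lower and 2, Jak1 and Ifngr2, were higher.

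In the list of TNF receptors and canonical NF-κB genes, 4 of 16 were lower, 1 higher and 11 neither. Of all genes tested, 27.8% were lower and 19.5% higher. With no limit on the fold, 7 genes of the list were lower and 6 higher. The median of its log2 fold changes was 0.01. The 4 genes lower by both limits were Tnfaip3, Nfkbiz, Nfkbie and Tnfrsf1b. Tnfaip3 (A20), a feedback inhibitor that NF-κB induces, had the largest change at -4.36 (SE 0.11, edgeR adjusted p = 5.4e-11). Rela, the main activating subunit, had 4374, 4146 and 4038 counts with TNF-α and 4238, 4230 and 4362 with EMO, a log2 fold change of 0.10 (SE 0.06, edgeR adjusted p = 0.13). Nfkbia, the main inhibitor of NF-κB, was lower by a log2 fold change of -0.38 (SE 0.06, edgeR adjusted p = 7.7e-05), and its relative Nfkbib was higher by 2.31 (SE 0.07, edgeR adjusted p = 2.5e-10). The smallest change was that of Traf2, at -0.08 (SE 0.09).

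Of 5 genes of the lymphotoxin receptor and non-canonical NF-κB pathway, known for inducing Cxcl13 and Cxcl12 in lymphoid stroma, 1 was lower and 0 higher. Traf3 had a log2 fold change of -1.42 (SE 0.10, edgeR adjusted p = 1.1e-07), and the receptor Ltbr one of -0.01 (SE 0.08, edgeR adjusted p = 0.91). Of 7 genes that set the decay of chemokine mRNAs, 3 were lower. Zfp36l1, a protein that binds AU-rich tails, had the largest change at -4.21 (SE 0.08), and Elavl1, which stabilizes such mRNAs, the smallest at 0.05 (SE 0.07).

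Of 8 tested genes of receptor coupling and desensitization, 5 were lower and 1 higher, and Grk3 had 0 counts in every library. Arrb1, a β-arrestin, had the largest change at -2.76 (SE 0.24), the G protein subunit Gnai3 the smallest at 0.01 (SE 0.07), and the receptor kinase Grk2 was the higher gene, by 1.36 (SE 0.06, edgeR adjusted p = 2.0e-09).

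**Figure D5:**
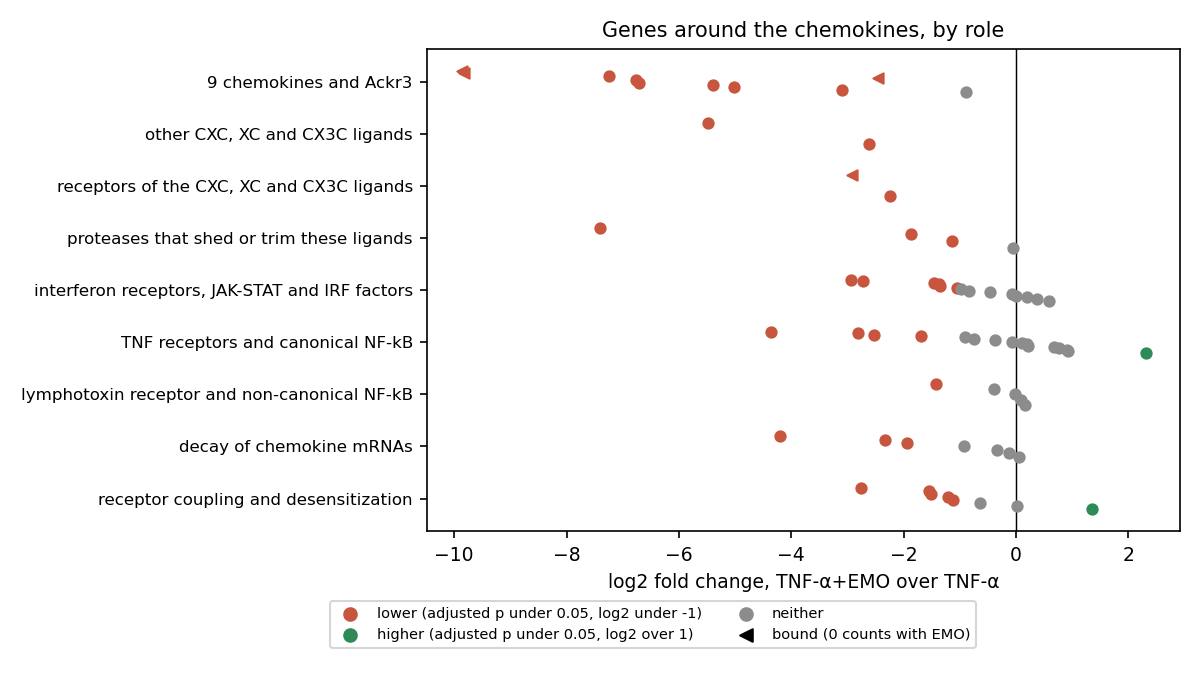
Log2 fold change of TNF-α+EMO over TNF-α of each tested gene, by role, with genes past the limits in red (lower) or green (higher), others in grey, and triangles for bounds where TNF-α+EMO libraries had 0 counts. The top row holds the 9 chemokines and Ackr3, and the 2 higher genes are Nfkbib and Grk2.

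Markers of the labelled cell type moved with the groups. Of 8 tested fibroblast-like synoviocyte markers, 7 were lower with EMO and 0 higher (median of log2 fold changes -5.55). By the same limits of p and fold, 27.8% of all genes tested were lower and 19.5% higher. The counts of markers in this paragraph are to be read beside these shares. The summed normalized count of the 11 synoviocyte markers in the table ranged from 200874 to 220957 with TNF-α and from 35145 to 37833 with EMO. Pdgfra had a log2 fold change of -6.59 and Col3a1 one of -8.76, while Vim, at -0.92, passed the limit of adjusted p but not that of fold. Thy1, Pdpn and Prg4, which define sublining and lining synoviocytes, had 7 counts or fewer in every library. The 8 macrophage markers did not move together: of the 3 tested, 1 was lower, 1 higher and 1 neither. Cd14 was lower, from 1093 ± 57.8 to 510 ± 41.2 normalized counts (SD, n = 3 each) and -1.10 in log2 fold change (SE 0.09, edgeR adjusted p = 4.4e-07). Itgam was higher, with 1, 0 and 0 counts with TNF-α and 12, 10 and 14 with EMO (edgeR adjusted p = 2.1e-04), and Cd68 had 153 ± 14.7 and 256 ± 11.3 normalized counts (SD, n = 3 each), higher by 0.75 in log2 fold change (SE 0.13, edgeR adjusted p = 2.4e-04), short of the limit of fold. The other macrophage markers (Ptprc, Adgre1, Csf1r, Mrc1 and Cd163) had 6 counts or fewer in every library, and the summed normalized count of the 8, mostly Cd14, ranged from 1202 to 1307 with TNF-α and from 747 to 818 with EMO. The 8 T and B cell markers, such as Cd3e and Cd79a, had 4 counts or fewer in every library, and their sum ranged from 3.90 to 11.8 and from 1.02 to 3.07. Of 6 endothelial markers, Vwf alone was tested and was lower by a log2 fold change of -3.55 (SE 0.46, edgeR adjusted p = 3.1e-05), Tek, Cdh5 and Tie1 had 18 counts or fewer in every library, and Kdr and Emcn had 0. The endothelial sum ranged from 70.2 to 76.5 with TNF-α and from 16.3 to 22.7 with EMO. Of 7 epithelial markers, Krt8 alone was tested and was lower (-2.28, SE 0.07), Krt14, Krt18, Krt19 and Cdh1 had 8 counts or fewer in every library, and Krt5 and Epcam had 0. The epithelial sum, mostly Krt8, ranged from 9950 to 10812 and from 1968 to 2304. All 13 tested mitochondrial mRNAs were lower as well, where 27.8% of all genes tested were, with a median log2 fold change of -4.32. The part of these differences in the chemokine results was not tested, and in bulk RNA fewer cells that make a transcript and less of it per cell cannot be told apart.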

How the data were processed

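RNA-seq of 6 libraries of rat RA-FLS, 3 per group, was analysed. The libraries were poly(A)-selected and paired-end, and FastQC, Trimmomatic, HISAT2 and the build Rnor_6.0 are named in the submitters' processing notes. The counting program, the annotation version and the strand setting are not given in the sources used here. The authors deposited raw counts per gene, without normalization, and FPKM values, which were used only for the order of levels. The authors' own comparison (group means, fold changes, p-values) was not used.

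Genes reaching 10 counts in 3 or more libraries (13614 of 34156) were normalized by TMM and tested with edgeR 4.0.16 in R 4.3.3 (glmQLFit with robust estimation, glmQLFTest), and p-values were adjusted by Benjamini-Hochberg across the 13614 genes. The standard error is the size of the log2 fold change divided by the square root of F. The common biological coefficient of variation was 0.121. Cxcl3, Cxcl17, Cxcr3, Fap and Vwf passed the filter through the TNF-α libraries, and Itgam through the TNF-α+EMO libraries. Counts of lower and higher genes in their lists are therefore a description. The fit was tested on simulated counts. DESeq2 1.42.0, limma 3.58.1 (voom), other scalings and filters, a replicate block and leaving out each library were alternatives. A group at 0 counts was set against a floor of 3 counts per library, and intervals (95%) and floors cover counting error only. With 3 against 3 libraries an exact permutation test of 1 gene cannot give a p below 0.1. The study's methods call the samples biological replicates, and where the labels say nothing of separate cultures the spread may be technical.

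The 10 genes and all lists were chosen with earlier results of these data known. The genes named are all 10, in each other list the largest and smallest change, the untested genes, the cognate receptors, Adam10, Adam17, Irf1, Rela and Nfkbia, and the 3 genes closest to the most abundant of the 10. Other genes (the remaining lower or higher genes of short lists, markers and neighbours) were named after their values were seen. Some genes that the rule also names, and most T and B cell markers, are not named here.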

Additional observations from a re-analysis of the deposited data

How the results depend on the processing

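Of the 10 genes, 9 were lower and 0 higher by the limits of adjusted p and fold under every alternative tried (DESeq2, limma voom, 3 other scalings, 2 other filters, a replicate block, no robust estimation, stricter limits and leaving out each library in turn), and each of the 10 kept its direction and an adjusted p under 0.05 in all 17 alternatives of its own. Stricter limits (adjusted p under 0.01, absolute log2 fold change over 2) gave 3037 genes in all in place of 6442, and 13 lower and 1 higher genes of the 8 lists in place of 26 and 2. Leaving out 1 library gave 6338 to 6462 genes in all. The deviations of same-numbered libraries from their group means had correlations across genes of 0.0095, -0.0067 and 0.080. Libraries of different numbers had correlations of -0.085 to 0.080. No pairing by number was seen, but a weak one could leave values this small and was not excluded. With the replicate block 6421 genes were called and the log2 fold change of Cxcl1 was -3.10. Library size alone moved the median log2 fold change of all genes from -0.01 to -0.13 and that of Cxcl16 from -0.88 to -0.997, short of the limit. The fitted log2 fold changes of genes at or near 0 counts with EMO depended on the prior count and, for Cxcl2, on 1 library, and ranged from -14.54 to -10.49 for Cx3cl1 and from -14.52 to -10.44 for Cxcl12 over the alternatives, from -7.25 to -3.24 for Cxcl9 and from -9.41 to -5.01 for Cxcl2. Depth limits what can be said of Cxcl9 and Cxcr3, at 29 counts or fewer per library with TNF-α, and of receptors at 0.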
